A study of Homo sapiens with 12 samples.

Results

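The chromatin binding of PHF19 and of MTF2 was compared in control K562 cells, a human line derived from a chronic myeloid leukemia in blast crisis that carries the BCR-ABL fusion and has an erythroid character. The cells were infected with a lentivirus holding the empty PLKO.1 vector (shCT) and selected with puromycin, so they carry no hairpin against PHF19. Each protein was measured by ChIP-seq in 1 shCT library, 2 of the 12 samples of the series, with an antibody to PHF19 from Cell Signaling or to MTF2 from Proteintech and fly chromatin with an antibody to H2Av as spike-in. The PHF19 list held 5621 peaks and the MTF2 list 12502 peaks, and every peak of both lists was kept. A peak counted as shared when it met a peak of the other list by at least 1 bp. Expression was taken as the authors' mean normalized count of each gene over all 6 RNA-seq libraries, 2 each for shCT and for 2 hairpins against PHF19 (sh#1 and sh#2), so that value also contains PHF19-depleted cells.

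PHF19 and MTF2 are Polycomb-like proteins, as is PHF1. They are accessory subunits of Polycomb repressive complex 2 (PRC2), the complex that methylates lysine 27 of histone H3 and keeps developmental genes silent. Each has a Tudor domain that can bind methylated lysine 36 of histone H3, PHD fingers, and a winged-helix region that binds DNA rich in unmethylated CpG and thereby brings PRC2 to CpG islands.

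With 1 library of each protein there is no replicate check, and no test of a difference was possible. Shares are given with exact (Clopper-Pearson) 95% intervals and medians with order-statistic 95% intervals, and both cover counting error only. The lists give where each peak lies and its score, without tag counts, so the depth of each library is unknown and scores were used only to rank peaks within their own list (the lowest score in either list was 50). The heading of the PHF19 list names sh4 beside the sample, the tag that also marks the MTF2 list of sh#2 cells, whereas the MTF2 headings name IgG. The study names IgG as the control of its PHF19 ChIP, while its methods say only that peaks were called against a corresponding control. It is therefore not known here whether PHF19 peaks were called over IgG or over chromatin of sh#2 cells. In the latter case a PHF19 peak would mark a place with less signal after depletion, not enrichment over IgG. The samples named in the headings differ between the lists, and the part of this in the differences described here was not tested.

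Examples of DNA under the peaks are printed, each the most CpG-rich 200 bp of a peak outside annotated untranslated regions. They come from the highest-scoring peaks with a single protein at the promoter of a protein-coding gene and in the body of a gene. The highest peak in a gene body with both is also printed. So are the highest MTF2 peak of all and the PHF19 peak at CTNNB1, an active gene. Each stretch was chosen for its CpG, so it does not show where in the peak a protein sat. All are from the plus strand of GRCh37, the assembly of hg19, and capitals mark each CpG.
Between genes, both proteins, chr2:91670408-91670607: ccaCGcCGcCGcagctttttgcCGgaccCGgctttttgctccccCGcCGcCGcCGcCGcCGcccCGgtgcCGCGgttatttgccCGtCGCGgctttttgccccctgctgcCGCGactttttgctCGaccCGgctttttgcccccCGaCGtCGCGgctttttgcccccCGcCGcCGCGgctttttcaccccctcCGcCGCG
SKAP1 intron, both proteins, chr17:46226843-46227042: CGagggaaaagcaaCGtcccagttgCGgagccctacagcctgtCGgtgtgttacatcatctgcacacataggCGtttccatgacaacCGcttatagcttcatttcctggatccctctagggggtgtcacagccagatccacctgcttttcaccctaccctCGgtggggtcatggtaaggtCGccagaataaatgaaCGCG
CTNNB1, PHF19 without MTF2, chr3:41240448-41240647: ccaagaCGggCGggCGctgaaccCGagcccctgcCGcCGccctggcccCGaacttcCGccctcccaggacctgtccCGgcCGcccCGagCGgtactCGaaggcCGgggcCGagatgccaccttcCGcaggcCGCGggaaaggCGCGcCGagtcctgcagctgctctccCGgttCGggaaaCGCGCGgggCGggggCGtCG
TMCC2, PHF19 without MTF2, chr1:205197760-205197959: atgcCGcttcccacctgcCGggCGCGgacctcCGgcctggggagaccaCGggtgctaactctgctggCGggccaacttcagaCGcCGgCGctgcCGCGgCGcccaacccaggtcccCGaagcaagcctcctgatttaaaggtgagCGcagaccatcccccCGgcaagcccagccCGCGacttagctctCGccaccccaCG
NRXN2, PHF19 without MTF2, chr11:64442930-64443129: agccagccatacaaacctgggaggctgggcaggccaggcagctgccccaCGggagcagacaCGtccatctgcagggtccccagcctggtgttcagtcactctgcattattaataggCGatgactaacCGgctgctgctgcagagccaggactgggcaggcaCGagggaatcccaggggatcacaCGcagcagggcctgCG
EN2, MTF2 without PHF19, chr7:155249991-155250190: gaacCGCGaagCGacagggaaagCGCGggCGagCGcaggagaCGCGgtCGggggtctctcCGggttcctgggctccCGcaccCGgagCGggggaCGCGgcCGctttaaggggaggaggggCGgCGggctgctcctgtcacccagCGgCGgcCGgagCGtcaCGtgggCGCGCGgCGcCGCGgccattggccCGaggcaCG
KCNT1 intron, MTF2 without PHF19, chr9:138674597-138674796: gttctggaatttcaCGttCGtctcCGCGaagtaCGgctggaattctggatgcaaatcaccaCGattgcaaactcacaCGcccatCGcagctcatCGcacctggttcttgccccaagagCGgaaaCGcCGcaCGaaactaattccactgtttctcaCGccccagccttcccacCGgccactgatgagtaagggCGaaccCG
The stretch between genes on chromosome 2, from a site with peaks of PHF19 and MTF2, held 32 CpG. The EN2 stretch, from an MTF2 peak without PHF19, held 32. The CTNNB1 stretch, in an intron and from a PHF19 peak without MTF2, held 29. The TMCC2 stretch, in an exon, held 20. Away from promoters the KCNT1 stretch with MTF2 without PHF19 held 17. The SKAP1 stretch with both held 10 and the NRXN2 stretch with PHF19 without MTF2 held 7. Over their whole peaks the CpG density was 3.66 per 100 bp at KCNT1, 1.26 at SKAP1 and 1.12 at NRXN2. Over all peaks, the richest 200 bp had a median of 29.5 CpG in promoter PHF19 peaks with MTF2 and 21 in those without, and 10 against 5 away from promoters. Wider peaks offer more stretches to choose from, and peaks with both proteins were wider.

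Over the whole deposited lists, PHF19 peaks were split almost evenly between sites with and without MTF2, while most MTF2 peaks had no PHF19 peak. The deposited PHF19 list holds more peaks than the study reports. Of the PHF19 peaks, 2671 of 5621 met an MTF2 peak (47.5%, 95% interval 46.2 to 48.8). Of the MTF2 peaks, 2680 of 12502 met a PHF19 peak (21.4%, 20.7 to 22.2). The study kept PHF19 peaks above a minimum number of tags, which the list does not give. Peaks that it left out are therefore among these 5621 and could not be removed, and the share depends on where the list ends. The study reports that most of its PHF19 target genes were also MTF2 targets, which is a count of genes and not of peaks. PHF19 peaks covered 11.5 Mb and MTF2 peaks 29.0 Mb. The 5.90 Mb under both made up 51.3% of the PHF19 bases and 20.3% of the MTF2 bases. Because the MTF2 list was longer, the overlap was also counted with only its 5621 highest peaks, which gave 35.6% of PHF19 peaks and 33.5% of MTF2 peaks.

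Agreement between the proteins was greatest at their highest peaks. Each list was divided by score into 4 bins of equal size. In the highest bin of the PHF19 list 77.4% of peaks met an MTF2 peak (75.1 to 79.5), followed by 47.3%, 37.7% and 27.7% in the lower bins. For MTF2 the shares were 45.6%, 17.8%, 13.1% and 9.28%. With the MTF2 list shortened to 5621 peaks the highest and lowest bins were at 63.9% and 17.9% for PHF19 and at 61.5% and 16.9% for MTF2, so the gap between the proteins depends on the length of the lists. Neighbouring bins had intervals that did not overlap in either list. Of the 100 highest PHF19 peaks 98 met some MTF2 peak, and of the 100 highest MTF2 peaks 96 met some PHF19 peak. The order within the lists was less alike, since 28 of the 100 highest PHF19 peaks met one of the 100 highest MTF2 peaks. Among the 1000 highest of each list, 378 PHF19 peaks (37.8%) met one of the MTF2 1000.

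**Figure D1:**
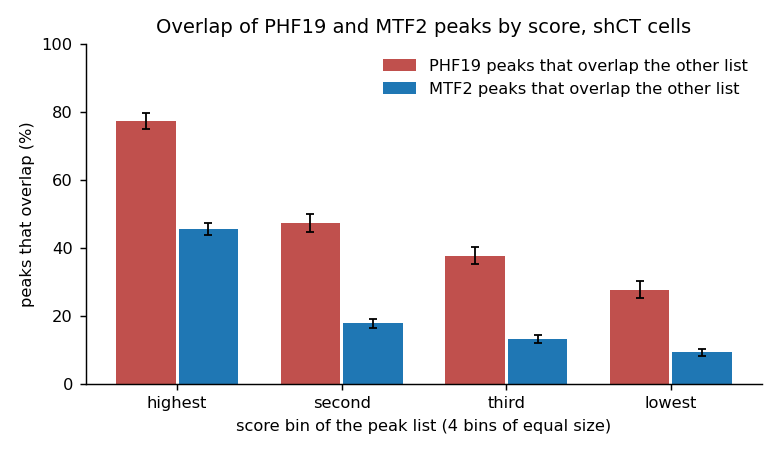
Share of PHF19 peaks that met an MTF2 peak (red) and of MTF2 peaks that met a PHF19 peak (blue), in percent, in 4 bins of equal size from the highest to the lowest scores of each list, with exact 95% intervals as error bars. The share went from 77.4% to 27.7% for PHF19 and from 45.6% to 9.28% for MTF2, and with lists of equal length the values were 63.9% and 17.9% for PHF19 and 61.5% and 16.9% for MTF2 (not drawn).

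Broad peaks were shared more often than narrow ones. Of PHF19 peaks under 1 kb 16.6% met MTF2, and of those of at least 5 kb 89.1% did (236 of 265). For MTF2 the corresponding shares were 7.97% and 51.5% (467 of 906). The median width was 2132 bp (2077 to 2180) for PHF19 peaks with MTF2 and 1310.5 bp (1281 to 1337) for those without. MTF2 peaks measured 2597.5 bp (2498 to 2671) with PHF19 and 1631 bp (1610 to 1656) without. A wider peak also has more room to meet another by at least 1 bp.

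**Figure D2:**
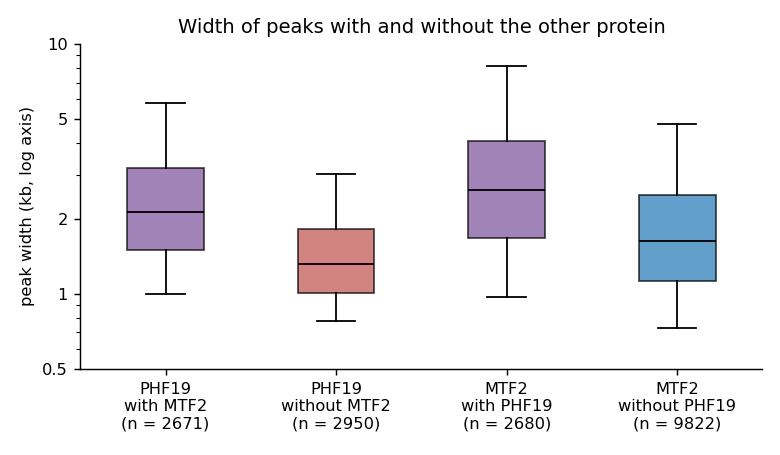
Peak width in kb on a log axis for peaks with and without a peak of the other protein. Boxes span the middle 50% of peaks with a line at the median and whiskers reach from the 5th to the 95th percentile, and peaks with both proteins were the wider ones in each list, with medians of 2132 against 1310.5 bp for PHF19 and 2597.5 against 1631 bp for MTF2.

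Where peaks of the proteins met, they largely covered the same DNA, and the MTF2 peak was more often the wider. Each protein has 1 library of unknown depth and the headings name different samples. The part of these in peak width was not tested. A median of 95.9% of a shared PHF19 peak lay under MTF2, and 1026 of the 2671 (38.4%) lay wholly inside an MTF2 peak. A median of 77.3% of a shared MTF2 peak lay under PHF19. In 2108 pairs each peak met a single peak of the other list. The MTF2 peak was the wider in 1373 of these pairs (65.1%), with median widths of 2575 bp for MTF2 and 2041.5 bp for PHF19. Their midpoints were a median of 366 bp apart and within 500 bp of each other in 1300 pairs (61.7%). Across the 2108 pairs, which share the DNA under them and come from 1 library each, Spearman's rho was 0.54 for the widths and 0.29 for the scores.

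Some PHF19 peaks without MTF2 had an MTF2 peak nearby. Over all of them the median distance to the nearest MTF2 peak was 26487 bp (24080 to 29770). It was 72336 bp (57347 to 89081) for those at promoters and 20359.5 bp (18193 to 22911) for those elsewhere. An MTF2 peak lay within 5 kb of 24.0% of all PHF19 peaks without MTF2 and within 20 kb of 45.0%. A PHF19 peak lay within 5 kb of 16.0% and within 20 kb of 34.6% of the MTF2 peaks without PHF19. In the MTF2 list of sh#2 cells, made from 1 library of PHF19-depleted cells with 18287 peaks, 92.7% of the shared PHF19 peaks and 25.6% of the PHF19 peaks without MTF2 met a peak.

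The strongest peaks of the 2 lists named partly the same genes. The highest PHF19 peak lay at GJC1, which encodes a gap junction connexin, with a score of 1414.25, and the MTF2 peak there ranked 5 in its list. PHF19 ranks 2 and 3 lay at HEY2, a Notch effector of the bHLH family, and at ATF3, a stress-induced bZIP factor. The MTF2 peaks at these genes ranked 120 at HEY2 and 54 at ATF3. The highest MTF2 peak, with a score of 3100, lay between genes at chr2:91669689-91671327, and a PHF19 peak at the same place ranked 4. Its 1639 bp held 13.2 CpG per 100 bp, against a median of 2.63 over MTF2 peaks with PHF19. This peak lay 293462 bp from the nearest start site, and its printed stretch holds repeated runs of letters. Whether repeated DNA had a part in the scores there was not tested. MTF2 ranks 2, 3 and 4 lay at LHX1 and UNCX, both homeobox factors, and at BMP6, a BMP ligand. PHF19 had peaks at these 3 genes too, at ranks 149 for LHX1, 577 for UNCX and 138 for BMP6. At UNCX the MTF2 peak spanned 15853 bp and the PHF19 peak 3276 bp.

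High peaks of a single protein were found for both. The highest PHF19 peak without MTF2 lay in the body of NRXN2, which encodes a synaptic adhesion protein, ranked 69, and had an MTF2 peak 5062 bp away. The PHF19 peak at the TMCC2 promoter ranked 75 and was 112783 bp from the nearest MTF2 peak. Other promoters high in PHF19 without an MTF2 peak there were those of TTBK1 (rank 161), a tau kinase gene, SCML4 (rank 208), a Polycomb-group relative of Scm, PRKD3 (rank 223), a protein kinase gene, and CTNNB1 (rank 239), which encodes β-catenin. The mean normalized counts of these 4 genes were 0.335 for TTBK1, 7.47 for SCML4, 2807 for PRKD3 and 8799 for CTNNB1. The highest MTF2 peak without PHF19 lay in the body of KCNT1, a potassium channel gene, ranked 40, with a PHF19 peak 2448 bp away. Promoters high in MTF2 without PHF19 included EN2 (rank 105), a homeobox factor, PRKCZ (rank 154), an atypical protein kinase C, TMEM170B (rank 165) and SSTR5 (rank 177), a somatostatin receptor. Their mean normalized counts were 0.155 for EN2, 103 for PRKCZ, 24.3 for TMEM170B and 0 for SSTR5.

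Shared peaks lay at promoters, within 2.5 kb of a transcription start site, more often than peaks of a single protein. The promoter share was 38.9% (37.1 to 40.8) for PHF19 peaks with MTF2 and 24.1% (22.6 to 25.7) for those without. For MTF2 it was 40.0% with PHF19 (38.1 to 41.8) and 18.2% without (17.5 to 19.0). Read the other way, 59.4% of promoter PHF19 peaks met MTF2 against 42.2% of the others, and 37.4% of promoter MTF2 peaks met PHF19 against 16.7% of the others. This difference by place was seen in each score bin of both lists. In the highest PHF19 bin the overlap was 84.4% at promoters and 71.9% elsewhere. In the lowest it was 35.4% and 25.3%. PHF19 peaks without MTF2 lay between genes in 44.6% of cases and in the rest of a gene in 31.3%. MTF2 peaks without PHF19 were divided about equally, with 40.7% between genes and 41.0% in gene bodies. At promoters, 70.3% of PHF19 peaks with MTF2 covered a start site itself and 61.4% of those without. The former were wider, with medians of 2247.5 bp (2160 to 2418) against 1360.5 bp (1304 to 1416). Their midpoints lay further from the nearest start site, at medians of 629.5 bp (587 to 681) against 476.5 bp (419 to 551). A wider peak has more room to reach a start site or a promoter.

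Over all peaks and away from promoters, PHF19 peaks without MTF2 had the lowest CpG content of the classes. At promoters the lowest whole-peak median was 3.72 per 100 bp, in MTF2 peaks without PHF19, against 4.41 in PHF19 peaks without MTF2. The median CpG density of the whole peak was 2.64 per 100 bp (2.55 to 2.71) for PHF19 with MTF2 and 1.18 (1.15 to 1.22) for PHF19 without MTF2. MTF2 peaks had 2.63 with PHF19 and 2.17 without (2.14 to 2.20). Away from promoters, the central 500 bp of PHF19 peaks without MTF2 had a median of 1 CpG per 100 bp and 42.6% GC, whereas MTF2 peaks without PHF19 had 2 CpG per 100 bp and 51.8% GC. PHF19 peaks with MTF2 there had 2 CpG per 100 bp and 50% GC. A centre like a CpG island, with at least 50% GC and a ratio of observed to expected CpG of at least 0.6, was present in 2.59% of PHF19 peaks without MTF2 and 9.50% of those with MTF2 away from promoters, and in 9.63% of MTF2 peaks with PHF19 and 5.74% of those without. At promoters the PHF19 shares were 47.1% (43.3 to 50.8) and 50.8% (47.7 to 53.8), with overlapping intervals. MTF2 promoter peaks had such a centre in 50.4% of cases with PHF19 and in 37.5% without.

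**Figure D3:**
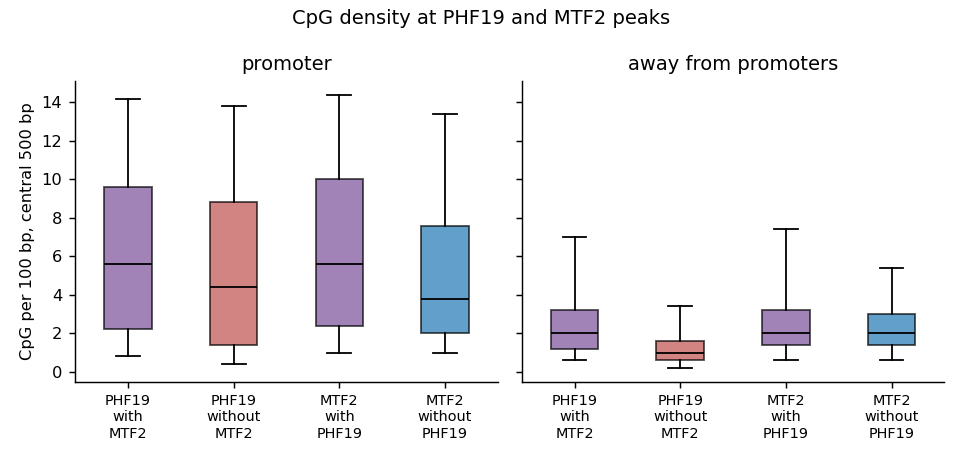
CpG per 100 bp in the central 500 bp of peaks at promoters (left) and away from them (right). Boxes span the middle 50% of peaks with a line at the median and whiskers reach from the 5th to the 95th percentile, and the lowest median, 1 CpG per 100 bp, was that of PHF19 peaks without MTF2 away from promoters.

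Short motifs were counted in the central 300 bp of each peak, on both strands. The letters AGATAA, which hold the core that GATA factors bind, were present in 21.3% (19.6 to 23.1) of PHF19 peaks without MTF2 away from promoters. They were present in 13.4% (11.8 to 15.1) of the PHF19 peaks with MTF2 and 11.3% (10.6 to 12.0) of the MTF2 peaks without PHF19 there. At promoters the shares were 14.6% for PHF19 without MTF2, 10.0% with MTF2, 7.04% for MTF2 without PHF19 and 6.82% for MTF2 with PHF19. Of windows of the same length at all 21870 start sites 6.09% held these letters. The median GC content of these windows away from promoters was 42.7% for PHF19 without MTF2, 50% with MTF2 and 52% for MTF2 without PHF19. At promoters it was 54.3%, 60.7% and 58.7% in the same order, and 65% in the start-site windows. Its part in these shares was not tested. CCGGAAG, letters bound by ETS factors, was present in 6.60% of promoter PHF19 peaks without MTF2 (4.89 to 8.68), 2.60% of those with MTF2 (1.72 to 3.75), 2.85% of promoter MTF2 peaks without PHF19 and 12.5% of all start-site windows. GGGCGG, the letters of a GC box, was found at promoters in 45.1% of PHF19 peaks with MTF2, 37.2% of those without, 37.5% of MTF2 peaks without PHF19 and 57.9% of all start-site windows. TGANTCA, the letters of an AP-1 site, lay in 9.87% of PHF19 peaks without MTF2 away from promoters (8.67 to 11.2) and in 7.54% of those with MTF2 (6.31 to 8.93). At promoters TGANTCA was in 5.76% and 5.29% of these peaks and in 5.07% of start-site windows. GCGCGC was in 21.0% of promoter PHF19 peaks with MTF2, 17.4% of those without, 14.2% of promoter MTF2 peaks without PHF19 and 26.7% of start-site windows.

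At the level of genes, 24266 of the 27348 genes in the authors' table could be placed. PHF19 had a promoter peak at 7.06% of them and MTF2 at 9.83%. Both had one at 1044 genes (4.3%), PHF19 alone at 668 (2.75%), MTF2 alone at 1342 (5.53%) and neither at 21212. With the MTF2 list shortened to 5621 peaks, the order of the single-protein classes turned, to 835 genes with PHF19 alone and 707 with MTF2 alone. At 1002 of the 1044 genes with both (96.0%) the peaks themselves overlapped. The cells had the erythroid profile of K562, with mean normalized counts of 171752 for the fetal globin gene HBG2 and 7043 for GATA1. Of the 10 markers of other cell types 2, MS4A1 and KRT5, were at 0, and CD3D, a T cell receptor chain, was the highest at 962. The PRC2 genes were expressed, with counts of 7798 for PHF19, 2797 for MTF2, 1322 for PHF1 and 5034 for EZH2.

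Genes with PHF19 alone were mostly expressed, whereas those with MTF2 were expressed at low levels or not at all in most cases. The median mean normalized count was 605 (445 to 757) for PHF19 alone, 9.16 (7.20 to 11.4) for both, 1.45 (1.09 to 1.92) for MTF2 alone and 51.8 (44.6 to 59.3) for neither. Expressed per kb of exon, so that genes of different length can be compared, the median level was 134 for PHF19 alone, 2.29 for both, 0.365 for MTF2 alone and 20.5 for neither. A count of at least 10 was reached by 80.4% of the PHF19 alone genes, 48.9% of those with both, 30.6% of the MTF2 alone genes and 59.2% of those with neither. A count of at least 1000 was reached by 282 of the 668 PHF19 alone genes (42.2%) and by 46 of the 1342 MTF2 alone genes (3.43%). The median for PHF19 alone was 326 with the MTF2 list shortened to 5621 peaks and 1037 without the genes that had an MTF2 promoter peak in sh#2 cells. Among protein-coding genes the median counts were 835 for PHF19 alone, 11.9 for both, 2.46 for MTF2 alone and 319 for neither. Among long noncoding RNA genes the median count was 8.20 for the 51 with PHF19 alone (2.62 to 20.4), 0.643 for the 98 with both and 0 for the 164 with MTF2 alone.

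The share of promoters with each combination was then followed along expression. Per kb of exon, PHF19 alone went from 1.01% of the 5626 genes under 0.1 to 4.08% (3.30 to 4.99) of the 2228 genes over 1000. MTF2 alone was most frequent between 0.1 and 1, at 12.7% of 2550 genes, and lowest over 1000, at 0.314% (0.126 to 0.646). Both proteins were most frequent between 1 and 10, at 8.96% of 3605 genes, and were at 0.404% over 1000. Between 10 and 100 PHF19 alone was at 3.36% and MTF2 alone at 3.79%, with overlapping intervals, and between 100 and 1000 they were at 4.05% and 1.10%.

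**Figure D4:**
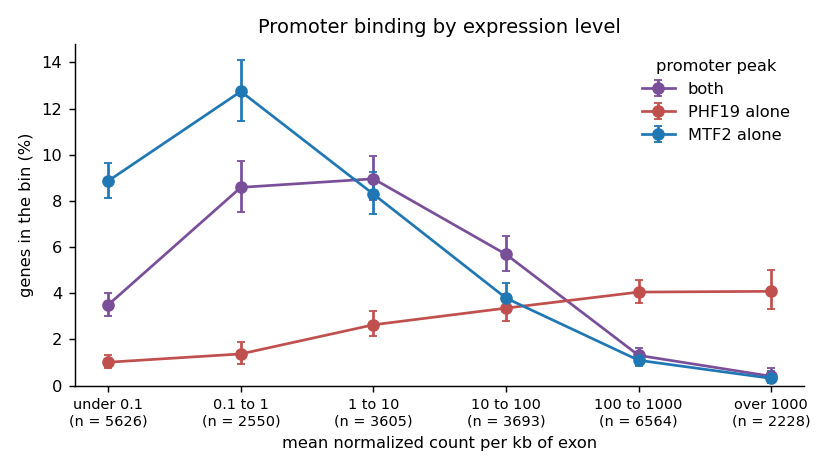
Share of genes, in percent, with a promoter peak of both proteins, PHF19 alone or MTF2 alone, in 6 bins of the mean normalized count per kb of exon, with exact 95% intervals as error bars. PHF19 alone was highest in the bins above 100 (4.05% and 4.08%), where MTF2 alone was at 1.10% and 0.314%.

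Genes under low and high peaks were also compared. Genes under the highest score bin of PHF19 peaks had a median count of 274 (96.9 to 675) where the peak had no MTF2 and 11.8 (9.23 to 16.9) where it had. In the lowest bin the medians were 427 (177 to 702) and 5.98 (2.26 to 9.23). For MTF2, the genes under the highest bin had a median count of 6.41 with PHF19 and 1.15 without, and those under the lowest bin 30.6 (12.0 to 81.1) and 1.55 (0.832 to 2.44).

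The most highly expressed genes with PHF19 alone were HSP90AB1, a cytosolic chaperone, CCT5, a chaperonin subunit, and RPL18, a ribosomal protein gene. Their mean normalized counts were 183938 for HSP90AB1, 38987 for CCT5 and 35264 for RPL18. The PHF19 peaks there were modest, at ranks 1656 for HSP90AB1, 4129 for CCT5 and 3247 for RPL18. With both proteins the highest counts were those of RPL38 (18197), a ribosomal protein gene, PDIA6 (13280), a protein disulfide isomerase, and MORF4L1 (12122), a chromodomain protein. The RPL38 peaks were high in both lists, at PHF19 rank 136 and MTF2 rank 218. With MTF2 alone they were GNAS (19599), which encodes a G protein α subunit, IPO5 (15401), an importin, and GNL2 (7337), a nucleolar GTPase. The MTF2 peaks at these genes ranked 8181 at GNAS, 7725 at IPO5 and 8959 at GNL2. The IPO5 peak lay inside the gene, at chr13:98623166-98623862 against a gene start of 98605929. The PDIA6 peaks of both proteins also lay inside their gene. Any annotated start of a gene counted as a promoter, so such a peak need not lie at the start that gives the count.

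Classes of genes were then read against all genes. Many had known roles in development, signaling or blood cells. Others did not, among them 412 olfactory receptors, 78 cytosolic ribosomal protein genes, 54 keratins and 40 interferon-stimulated genes. Of the olfactory receptors 406 had neither protein, so the shares over all 21 classes mix unlike groups. The 21 classes held 1223 placed genes, of which 101 had both proteins (8.26%, 6.78 to 9.94), 30 had PHF19 alone (2.45%, 1.66 to 3.48) and 131 had MTF2 alone (10.7%, 9.03 to 12.6), against 4.3%, 2.75% and 5.53% of all genes. With the MTF2 list shortened to 5621 peaks these numbers were 85, 46 and 75, so the counts of MTF2 against PHF19 in a class depend on the length of the list. The 30 class genes with PHF19 alone had a median count of 193 (6.99 to 884), those with both 2.47 (1.16 to 8.81) and those with MTF2 alone 0.335 (0.155 to 0.951).

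Homeobox factors outside the HOX clusters, which specify cell identity, had MTF2 at 59 of 120 promoters (49.2%) and PHF19 at 26 (21.7%). The shares of all genes were 9.83% and 7.06%. Both were at 23, among them LHX1, UNCX and ONECUT3. The 3 with PHF19 alone were DLX4 (count 1544), POU3F2 (158) and NKX2-6 (0). Developmental bHLH factors had MTF2 at 22 of 46 and PHF19 at 14, and all 14 had MTF2 as well, including HEY2, HAND1 and NEUROD2. Forkhead factors were more even, with MTF2 at 14 and PHF19 at 11 of 44. FOXD1 ranked 73 for PHF19 and 15 for MTF2, while FOXO3, a factor of stress and survival responses with a count of 1405, had PHF19 alone at rank 5513. T-box factors had MTF2 at 5 of 16, TBX5 and TBX3 among them, and PHF19 at TBR1 alone, and no promoter had both. Of the 6 GATA factors MTF2 was at GATA4 and PHF19 at GATA6. SOX factors had both proteins at SOX5, SOX8 and SOX21 and MTF2 alone at 2 more of 19. For GATA and SOX factors the intervals of both proteins include the shares of all genes, and for T-box factors that of PHF19 does.

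Over all 39 HOX genes MTF2 was at 16 (41.0%) and PHF19 at 14 (35.9%), against 9.83% and 7.06% of all genes. The HOX clusters differed from each other. At HOXD, with a median count of 0.531, both proteins were at 6 of 9 genes and MTF2 alone at the other 3. A PHF19 peak of 16913 bp, rank 57, spanned the start sites of HOXD8 and HOXD9. At HOXA, with a median count of 0.934, both were at HOXA11 and HOXA13, MTF2 alone was at HOXA9, and 8 of 11 genes had neither. HOXC had both at HOXC11, HOXC12 and HOXC13 and neither at its other 6 genes, with counts from 0.255 to 189 in the cluster. HOXB, the most highly expressed cluster with a median count of 228, had both at HOXB13 (1.65) and PHF19 alone at HOXB3 (511) and HOXB9 (5044). These PHF19 peaks ranked 3123 at HOXB3 and 5331 at HOXB9, low in the list.

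Signaling genes were counted next, and of all genes 4.3% had both, 2.75% PHF19 alone and 5.53% MTF2 alone. Wnt ligands, receptors and modulators had both at 10 of 53 genes, MTF2 alone at 11 and PHF19 alone at 3. WNT4 had PHF19 at rank 84 and MTF2 at rank 480, in peaks of 4591 and 10232 bp. The 3 with PHF19 alone were RNF43, a ligase that removes Wnt receptors (rank 464, count 227), FZD2, a Wnt receptor (rank 3868, count 102), and DKK3 (rank 2028, count 2.37). BMP, activin and TGF-β genes had both at 6 of 41, MTF2 alone at 7 and PHF19 alone at BAMBI, a decoy receptor with a count of 448. FGF and Hedgehog ligands had both at 3 and MTF2 alone at 2 of 25, with SHH in the latter. Their intervals for PHF19 (12%, 2.55 to 31.2) and MTF2 (20%, 6.83 to 40.7) include the 7.06% and 9.83% of all genes. Ephrins and their receptors had both at 3, PHF19 alone at 2 and MTF2 alone at 3 of 22. At EFNA2 peaks of 13260 bp for PHF19 and 13063 bp for MTF2 nearly matched in width.

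Collagens had MTF2 at 14 of 41 promoters (34.1%, 20.1 to 50.6) and PHF19 at 5 (12.2%, 4.08 to 26.2), against 9.83% and 7.06% of all genes. COL2A1 and COL9A3 had both, and COL6A2, COL1A1 and 8 more had MTF2 alone. Voltage-gated potassium channels had MTF2 at 15 of 40 (37.5%, 22.7 to 54.2) and PHF19 at 6 (15%, 5.71 to 29.8). Of these 6 KCNH2, with PHF19 alone, was the most highly expressed gene of the class at a count of 11446. Keratins had MTF2 alone at 8 of 54 (14.8%, 6.62 to 27.1), and these MTF2 peaks ranked between 4051 at KRT32 and 12372 at KRT37. PHF19 alone was at KRT28. The PHF19 intervals of collagens and potassium channels and the MTF2 interval of keratins include the shares of all genes.

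The classes of blood genes differed in the share with MTF2. Among all genes 9.83% had an MTF2 peak and 7.06% a PHF19 peak at the promoter. Of 44 erythroid factors and structural genes, with a median count of 4772, BCL11A, a repressor of fetal globin, had both proteins, ANK1, the erythrocyte ankyrin, had MTF2 alone and the other 42 had neither. The erythroid intervals for MTF2 (4.55%, 0.555 to 15.5) and PHF19 (2.27%, 0.0575 to 12.0) include the shares of all genes. PHF19 was at 6 of 34 factors of other blood lineages (17.6%, 6.76 to 34.5), an interval that includes the 7.06%. MTF2 was at 13 of them (38.2%, 22.2 to 56.4). Both were at EBF1, IKZF3, LEF1 and MECOM, the last with its highest PHF19 and MTF2 peaks side by side and not overlapping, MTF2 alone was at 9 genes including PAX5, IRF8, CEBPA and RUNX3, and PHF19 alone was at ID3 (count 1409) and IRF4 (count 2.06).

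Of all genes 2.75% had PHF19 alone. PRC2 and PRC1 subunits were the class with the largest number of such genes, 4 of 34, in classes of unequal size. They were EZH2, the methyltransferase of PRC2 (rank 2384, count 5034), RBBP4, a histone-binding subunit (rank 4908, count 13726), RNF2, the ubiquitin ligase of PRC1 (rank 1098, count 2431), and CBX2, a reader of the H3K27 mark (rank 694, count 810). PHF19 in all was at 5 of these 34 (14.7%, 4.95 to 31.1), an interval that includes the 7.06% of all genes. BMI1, a PRC1 subunit, had both, at PHF19 rank 67 and MTF2 rank 150, and PHC2 had MTF2 alone. PHF19, MTF2, PHF1, SUZ12 and EED had neither at their own promoters. Among cell cycle inhibitors CDKN1A, which encodes p21, had both, with peaks of 5379 bp for PHF19 (rank 361) and 5533 bp for MTF2 (rank 4343). CCNG2 and CDKN2D had PHF19 alone, and CDKN1C and GADD45G MTF2 alone. Each protein was at 3 of the 21 inhibitors (14.3%, 3.05 to 36.3), an interval that includes the share of all genes for either. Cytosolic ribosomal protein genes were bound at 2 of 78, interferon-stimulated genes at 3 of 40 and olfactory receptors at 6 of 412. Of all genes 87.4% had neither protein. For interferon-stimulated genes the intervals of PHF19 (0.0633 to 13.2) and MTF2 (1.57 to 20.4) include the shares of all genes. The interferon-stimulated gene ISG15 had peaks of both proteins, and its PHF19 peak was also the peak of HES4.

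**Figure D5:**
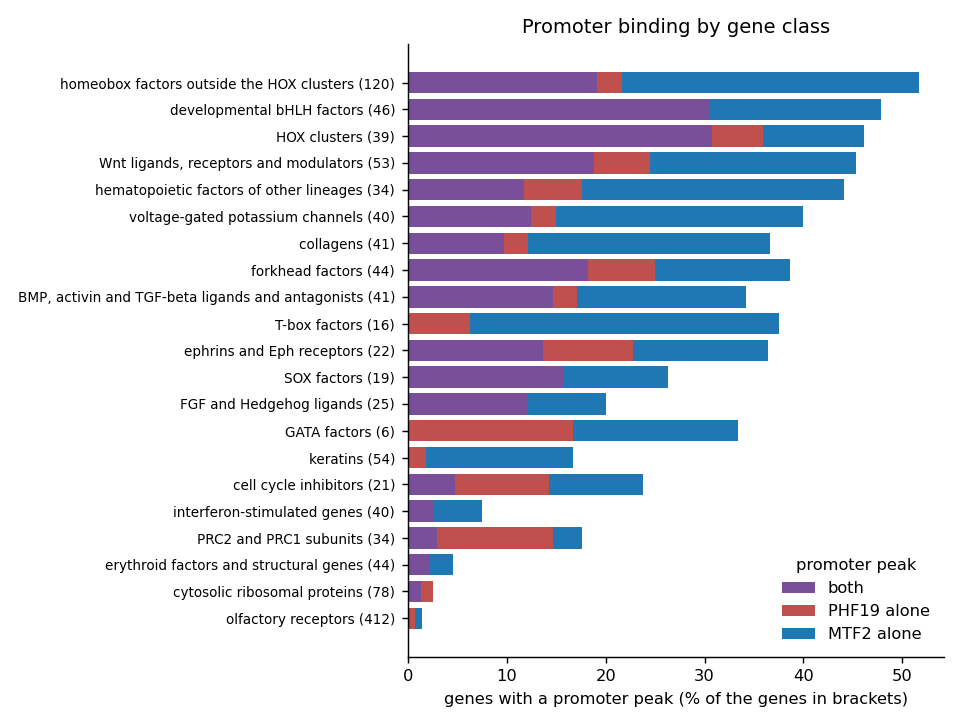
Share of the genes of each class, in percent, with a promoter peak of both proteins (purple), PHF19 alone (red) or MTF2 alone (blue), stacked, with the number of placed genes in brackets. MTF2 was at 49.2% and PHF19 at 21.7% of homeobox factors outside the HOX clusters, against 9.83% and 7.06% of all genes. Of the 34 PRC2 and PRC1 subunits 4 had PHF19 alone, against 2.75% of all genes.

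Of the genes shown in the study's own ChIP panels, 7 of 9 had both proteins at the promoter in shCT cells, against 4.3% of all genes. The study showed them as targets or examples from the same ChIP data, so a high count follows from that choice. ATF3 (count 385), NODAL (0.344), a ligand of the TGF-β family, FZD3 (39.4), a Wnt receptor, CDKN1A (281), NOTUM (339), a Wnt inhibitor, FOXC1 (67.4) and WNT4 (3.22) had both. At FOXC1 the MTF2 peak of 10877 bp and the PHF19 peak of 1752 bp did not overlap, although both reached into the promoter. PDGFRA, a growth factor receptor with a count of 0, and PLCG2, a phospholipase with a count of 439, had MTF2 alone, at ranks 1448 for PDGFRA and 2529 for PLCG2.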

How the data were processed

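ChIP-seq peaks of PHF19 and MTF2 in K562 shCT cells (1 library each) were compared. According to the methods, the authors used Bowtie on a joint human and fly genome of hg19 and dm3 (names also in the submitters' processing notes), kept unique matches and called peaks with MACS, with a shift size of 100 bp, against a control sample. Their versions were not given in the sources used here. The minimum of tags per PHF19 peak that the methods describe, and the spike-in, could not be applied to the deposited lists. For RNA-seq, the authors used TopHat and DESeq2. The deposited mean normalized count (treated as a score) was used, whereas the log2 fold changes, standard errors, Wald statistics and p-values of the authors' comparison were not.

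Coordinates are 1-based. Genes were placed by GENCODE 44 on GRCh37, whereas the authors used RefSeq, and 24266 of 27348 symbols matched (23241 directly). A promoter spans 2.5 kb on each side of any start site placed for a gene, alternative ones included. Counts per kb were divided by the exon length of the gene. Analysis used Python 3.11.15, numpy 2.4.6, pandas 2.3.3, scipy 1.17.1, pysam 0.24.0 and matplotlib 3.10.9, and the steps were tested on simulated data. Depth per sample is unknown.

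Members, gene classes and comparisons were chosen with earlier results of these data known. Named genes were those of the study's ChIP panels, the genes of the 5 highest promoter peaks of each kind, up to 3 members of each class by score, the 3 highest counts of each combination and the PRC2 genes. Not every gene this rule takes is reported here, and the sequence of the highest promoter peak with both proteins is not reported here. HOX genes, class members beyond these 3, the strongest peaks away from promoters and cell type markers were added to describe counts. Alternatives were other overlaps, promoter widths, list lengths, gene types and count filters.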

Additional observations from a re-analysis of the deposited data

How the results depend on the processing

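Of 76 alternatives, 27 left a value within its interval or a count within 1.5 times, and 49 moved it. The order of the median counts (PHF19 alone, then both, then MTF2 alone) held in each alternative that gave these medians. Among genes with a count of at least 10, however, the intervals of both and of MTF2 alone overlapped. Depth is unknown, and 1 library per protein gives no replicate spread. No paired analysis was possible because each ChIP has 1 library and the expression value is a mean over all RNA-seq libraries.

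With the MTF2 list shortened to the number of PHF19 peaks, 35.6% of PHF19 and 33.5% of MTF2 peaks overlapped, with 63.9% and 17.9% in the highest and lowest PHF19 score bins and 61.5% and 16.9% in those of MTF2. Median widths were then 2296 bp (PHF19 with MTF2), 1381 bp (PHF19 without), 3237.5 bp (MTF2 with PHF19) and 2519 bp (MTF2 without), promoter shares 43.4%, 24.4%, 45.6% and 22.8%, and CpG densities 2.99, 1.28, 3.07 and 2.56 per 100 bp. Genes numbered 877 with both, 835 with PHF19 alone and 707 with MTF2 alone, at median counts of 7.46, 326 and 1.30 (neither 43.1), and class genes 85, 46 and 75. The larger number of genes with MTF2 alone than with PHF19 alone therefore turned over at equal list length.

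With an overlap of at least 50% of the shorter peak, the shares were 45.5% and 20.1%, with 75.8% and 25.4% in the PHF19 bins and 44.4% and 7.84% in the MTF2 bins, and widths of 2155, 1322, 2656 and 1635 bp in the same order. With a midpoint inside the other peak they were 43.7% and 17.9%, and in the upper 50% of both lists 51.2% and 22.5%.

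With promoters of 1 kb, promoter shares were 33.5%, 19.5%, 35.3% and 14.3%, genes 911, 597 and 1247, and class genes 83, 23 and 119. With protein-coding genes the shares were 36.7%, 22.5%, 37.6% and 16.0%, genes 924, 596 and 1102, and median counts 11.9, 835 and 2.46 (neither 319). Among genes with a count of at least 10 the medians were 66.9 (53.2 to 84.9) for both and 54.8 (47.1 to 70.4) for MTF2 alone. They were 1118 (884 to 1309) for PHF19 alone and 878 (840 to 909) for neither, also with overlapping intervals. CpG density in the central 500 bp was 2.4, 1.2, 2.6 and 2.2 per 100 bp.

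The remaining alternatives were chosen after seeing the data. Without genes that had an MTF2 promoter peak in sh#2 cells, PHF19 alone genes had a median count of 1037. The upper 50% of both lists gave 9.59, 354 and 1.60, and genes where both peaks overlapped gave 9.22.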

Other observations

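The share of PHF19 peaks that met MTF2 differed between chromosomes, from 32.6% of 86 peaks on chromosome 18 (22.8 to 43.5, exact 95% interval) and 34.8% of 557 on chromosome 6 (30.9 to 38.9) to 71.0% of 107 on chromosome 21 (61.5 to 79.4) and 78.6% of 56 on chromosome 13 (65.6 to 88.4). PHF19 peaks were most numerous on chromosomes 1 (777), 7 (617), 6 (557) and 17 (498). Chromosome 22 held 48 PHF19 and 334 MTF2 peaks.

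The nearest genes of peaks away from promoters were also compared. Their median mean normalized count was 50.1 (35.9 to 74.3) for PHF19 peaks without MTF2, 9.44 (6.62 to 13.9) for PHF19 peaks with MTF2 and 5.23 (4.31 to 6.41) for MTF2 peaks without PHF19. For peaks inside a gene, the median count of the host gene was 12.0 (8.70 to 15.5), 4.75 (3.25 to 6.75) and 2.72 (2.19 to 3.40) in the same order. Which gene a distant peak belongs to was not tested.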
